A study of Mus musculus with 2 samples.

Results

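The chemokines and chemokine receptors of the mouse ureter were examined after a short block of WNT secretion. The genes were chosen by name alone, as all non-control probes of the array whose gene symbol begins with Ccl, Cxcl, Cx3cl, Ccr, Cxcr or Cx3cr and goes on with a number. This rule found 51 genes, 34 for ligands and 17 for receptors, with 68 of the 39429 probes and 51 of the 29924 gene names on the array. The samples came from explanted ureters of wild-type NMRI embryos at E11.5, of undetermined sex, that were kept on transwell membranes in serum-free medium over a culture of 18 h. Treated ureters received IWP-2 (10 µM), which inhibits the acyltransferase PORCN and thereby the release of WNT ligands, and control ureters received the solvent DMSO. RNA from a treated pool and from a control pool was hybridised together on a 2-colour array, and this was done on 2 arrays with their own pools and with swapped dyes (replicate 1 and replicate 2). The sources do not say whether the pools of the 2 arrays came from separate litters or cultures, so the p-values measure only the spread between these arrays, which may be technical.

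Chemokines are small secreted proteins that bind to proteoglycans and matrix and guide migrating cells through G protein-coupled receptors. Inflammatory chemokines are made on demand by macrophages, endothelium, epithelium and fibroblasts after injury or infection and recruit neutrophils, monocytes and effector lymphocytes. Homeostatic chemokines are made constitutively and place cells in tissues during development and in lymphoid organs, and *Cxcl12* with its receptor *Cxcr4* is the pair best known for roles in embryonic vessels and progenitor cells. Many inflammatory chemokine genes lie side by side in the genome and are targets of the transcription factor NF-kB. The split into inflammatory, homeostatic and dual or other genes used here is the textbook one.

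Of the 51 genes, 33 had a probe that stood well above background in the treated or in the control channel of both arrays and were tested, which is 26 ligands and 7 receptors. Across the array, 67.2% of gene names passed this criterion. All 7 homeostatic ligands on the array passed, as did 16 of 20 inflammatory ligands, 3 of 7 dual or other ligands and 7 of 17 receptors. In 28 of the 33 genes, all 4 channels were well above background, and no spot of the 68 probes was saturated. The 18 genes that did not pass are the inflammatory ligands *Ccl1*, *Ccl8*, *Ccl26* and *Cxcl9*, the dual or other ligands *Ccl17*, *Ccl20*, *Ccl22* and *Cxcl17*, and 10 receptors. These receptors are *Ccr1*, *Ccr2*, *Cxcr1*, *Cxcr2* and *Cxcr3* for inflammatory ligands, *Ccr9*, *Ccr10* and *Cxcr5* for homeostatic ligands, and *Ccr4* and *Cxcr6*. In 17 of the 18 genes none of the 4 channels was well above background, and the exception was *Cxcr3* with 1 channel. The processed intensities of their 22 probes lay between 1.07 and 7.96, so a difference between treated and control ureters was not detectable for them.

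These 2 quantities are given for each gene. The first is the processed intensity in each of the 4 channels, which the scanner software had corrected for background and for dye and which has no unit. The second is the log2 ratio of treated over control on each array after a separate correction for background with an offset and a loess normalization, and the offset shrinks the ratios of dim genes. At a false discovery rate (FDR) of 0.05 in limma, 5 of the 33 genes rose and 1 fell. *Cxcl3*, *Cxcl2*, *Cxcl10*, *Cxcl16* and *Cxcr4* were higher and *Cxcl14* was lower after IWP-2. Over all 20119 genes tested, 0.611% were higher and 1.15% were lower at this threshold, 1.76% in all. At an unadjusted p under 0.05, limma gave 16 higher and 4 lower members, and 1745 higher and 954 lower genes among all 20119. *Cxcl3*, *Cxcl2*, *Cxcl1*, *Ccr3* and *Ccr6* entered the test through the treated channel alone, in which they were brighter, so a higher value was built into their selection. With both channels required to be well above background on both arrays, 28 genes were left, *Cxcl3* and *Cxcl2* were not tested, and *Cxcl10*, *Cxcl16* and *Cxcr4* were higher and *Cxcl14* was lower at FDR 0.05 in limma.

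**Figure D1:**
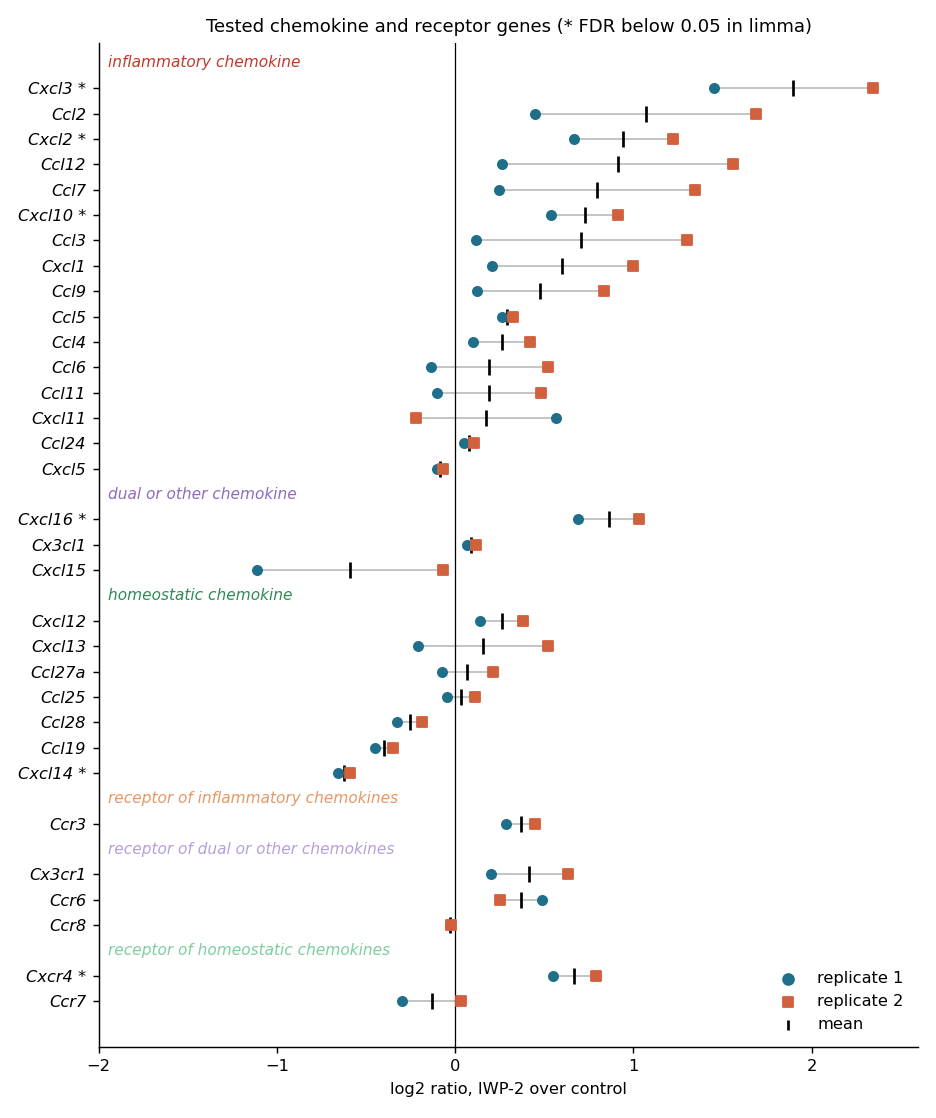
Log2 ratio of IWP-2-treated over control ureters (horizontal axis) for 32 tested chemokine and receptor genes, grouped by class. Circles are replicate 1, squares are replicate 2, the short vertical line is their mean and an asterisk marks FDR below 0.05 in limma. The squares lie to the right of the circles in 30 of the 32 genes, and the inflammatory ligands extend further to the right than the homeostatic ligands.

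The sign of the change was the same on both arrays for 25 of the 33 genes. Of these, 19 were higher and 6 were lower on both, where 28.5% and 27.5% of all genes tested were. The 5 genes kept through the treated channel alone were all among the 19, and of the other 28 genes 14 were higher and 6 were lower on both. The median change of the 33 genes was 0.11 on replicate 1 and 0.43 on replicate 2, beside -0.01 and 0.02 for all genes tested, and it was 0.06 and 0.40 for the 28 genes. The ratio was larger on replicate 2 than on replicate 1 for 31 of the 33 genes, against 59.3% of all genes tested. The arrays differ in their pools and in the orientation of the dyes, and these cannot be told apart as the source of that shift. The values of both arrays are therefore given throughout.

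**Figure D2:**
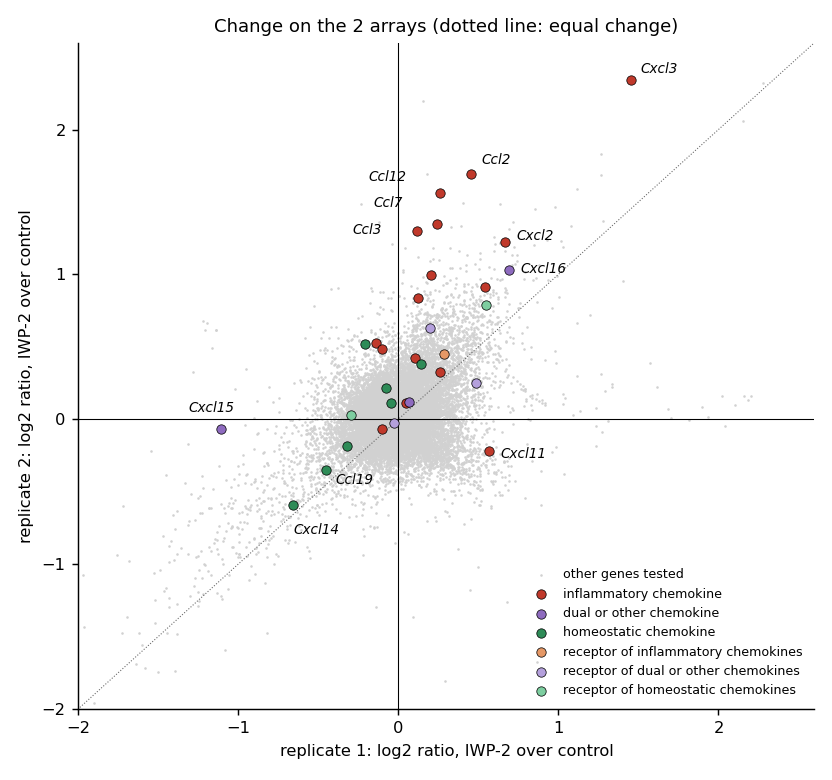
Log2 ratio of IWP-2-treated over control ureters on replicate 1 (horizontal axis) and on replicate 2 (vertical axis). Grey points are the other genes tested, coloured points are chemokines and receptors by class, and 20 genes lie outside the axes. *Cxcl3* is at 1.45 and 2.34, *Cxcl14* is at -0.66 and -0.59, and most coloured points lie above the dotted line of equal change.

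The inflammatory ligands had a median change of 0.54 on the log2 scale, with 0.23 on replicate 1 and 0.88 on replicate 2. This median was 0.29 over the 13 ligands with both channels well above background, and 0.28 over all 20 without a filter. Of the 16 tested, 12 were higher on both arrays, 1 was lower on both and 3 changed in opposite directions. Among the 12 are *Cxcl3*, *Cxcl2* and *Cxcl1*, which entered the test through the treated channel alone. No homeostatic ligand entered in this way. The homeostatic ligands had a median of 0.03, with -0.21 on replicate 1 and 0.11 on replicate 2. Of the 7 tested, 1 was higher on both arrays, 3 were lower on both and 3 changed in opposite directions. The difference between these classes is a description, and no test of it was made.

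The neutrophil-attracting ligands of CXCR2 held the largest change among the 33 genes. For this group the region before the start of transcription is shown, since *Cxcl3*, *Cxcl2* and *Cxcl1* lie in 1 cluster and share a stretch of letters there. They were higher on both arrays, but entered the test through the treated channel alone, so a higher value was built into their selection. The lines give the 150 bases before the RefSeq start (build GRCm38.p6, plus strand, 5′ to 3′) at chr5:90785951-90786100 for *Cxcl3*, chr5:90903749-90903898 for *Cxcl2* and chr5:90891095-90891244 for *Cxcl1*. Capitals mark matches, on either strand, to a form of the binding motif of NF-kB, which is GGG, any 2 bases and TTTCC.
Cxcl3: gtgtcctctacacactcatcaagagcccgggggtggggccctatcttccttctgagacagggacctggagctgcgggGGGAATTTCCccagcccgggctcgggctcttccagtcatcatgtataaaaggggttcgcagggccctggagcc
Cxcl2: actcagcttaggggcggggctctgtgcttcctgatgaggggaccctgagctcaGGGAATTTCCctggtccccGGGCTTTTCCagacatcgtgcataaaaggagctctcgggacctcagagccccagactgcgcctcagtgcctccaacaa
Cxcl1: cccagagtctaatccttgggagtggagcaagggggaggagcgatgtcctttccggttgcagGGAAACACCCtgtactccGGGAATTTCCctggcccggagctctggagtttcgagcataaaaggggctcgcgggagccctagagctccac

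The same 10 letters GGGAATTTCC began at position -73 in *Cxcl3*, -97 in *Cxcl2* and -71 in *Cxcl1*, counted back from the start. The other match in *Cxcl1* is GGAAACACCC, which reads as the motif on the opposite strand. Promoters were held in the RefSeq table for 36 of the 51 genes, from 250 bases before to 50 bases after the start. The other 15 genes were not searched, and *Cxcl5*, *Ccl2*, *Ccl7*, *Ccl4*, *Ccl5*, *Cxcl11* and *Cxcl16* are among them. Of these 36, 6 had a match to this motif on either strand, as did 1.63% of all 32851 promoters of this length. The other 3 genes were *Ccl9*, *Ccl20* and *Ccr3*. A looser pattern of GGG, any 3 bases and TTCC, which contains the first, matched 9 of the 36 genes and 5.56% of all promoters, and it added *Cxcl10*, *Ccr6* and *Ccl1*. The pattern CTTTGAT of the LEF/TCF factors of the WNT pathway was found in *Cxcl12* alone among the 36 genes and in 3.73% of all promoters. Members were counted by gene, with a match in any promoter held for the gene, and the shares over all promoters were counted by promoter. The patterns were chosen after the changes of the genes were known, and a match is a description of the sequence.

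*Cxcl3* encodes a ligand of CXCR2 that draws neutrophils. Its processed intensity was 31.1 in treated and 2.06 in control ureters on replicate 1, and 89.0 and 6.74 on replicate 2. The control channel was well above background only on replicate 2, and the treated values lay above the control values on both arrays without overlap. With the probe on chromosome 5 at 91216694 to 91216753 (build mm9), *Cxcl3* rose by 1.90 ± 0.63 on the log2 scale (mean ± SD, n = 2; adjusted p 0.0115 in limma). The size depends on the scale, since the processed intensities gave a mean of 3.82 (adjusted p 0.00219 in limma), and with a control channel at background on replicate 1 neither value is exact.

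*Cxcl2*, a further CXCR2 ligand that macrophages release early after stimulation, had a processed intensity of 13.1 in treated and 2.68 in control ureters on replicate 1. On replicate 2 the values were 33.0 and 5.51. On neither array did the control channel stand well above background, so the control level is only an upper limit. On the offset-corrected scale the fitted change was 1.92-fold, with 1.59 on replicate 1 and 2.33 on replicate 2. With the control channel at background, this fold is not exact. The log2 ratio was 0.67 on replicate 1 and 1.22 on replicate 2, with a mean of 0.94 ± 0.39 (SD, n = 2; adjusted p 0.0366 in limma), and the processed intensities gave a mean of 2.43 (adjusted p 0.00469 in limma). *Cxcl1*, the third gene of the group, had intensities of 9.64 and 6.42 on replicate 1 and of 27.3 and 6.64 on replicate 2 in treated and control ureters. Its log2 ratios of 0.21 and 1.00 did not pass the threshold (adjusted p 0.211 in limma). *Cxcl5* differed from its neighbours, with log2 ratios of -0.10 and -0.07 at intensities between 52.7 and 74.9.

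The receptors through which these 4 ligands act, *Cxcr2* and *Cxcr1*, were not well above background in any channel. In the list of neutrophil and mast cell markers, 5 of 12 genes tested were higher and 1 was lower on both arrays. That 1 gene is *Hdc*, which encodes the enzyme that makes histamine, with a log2 change of -3.02 ± 0.21 (SD, n = 2; adjusted p 0.000342 in limma). *Hdc* is not particular to these blood cells. The part of such cells in the rise of *Cxcl3* and *Cxcl2* was not tested.

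**Figure D3:**
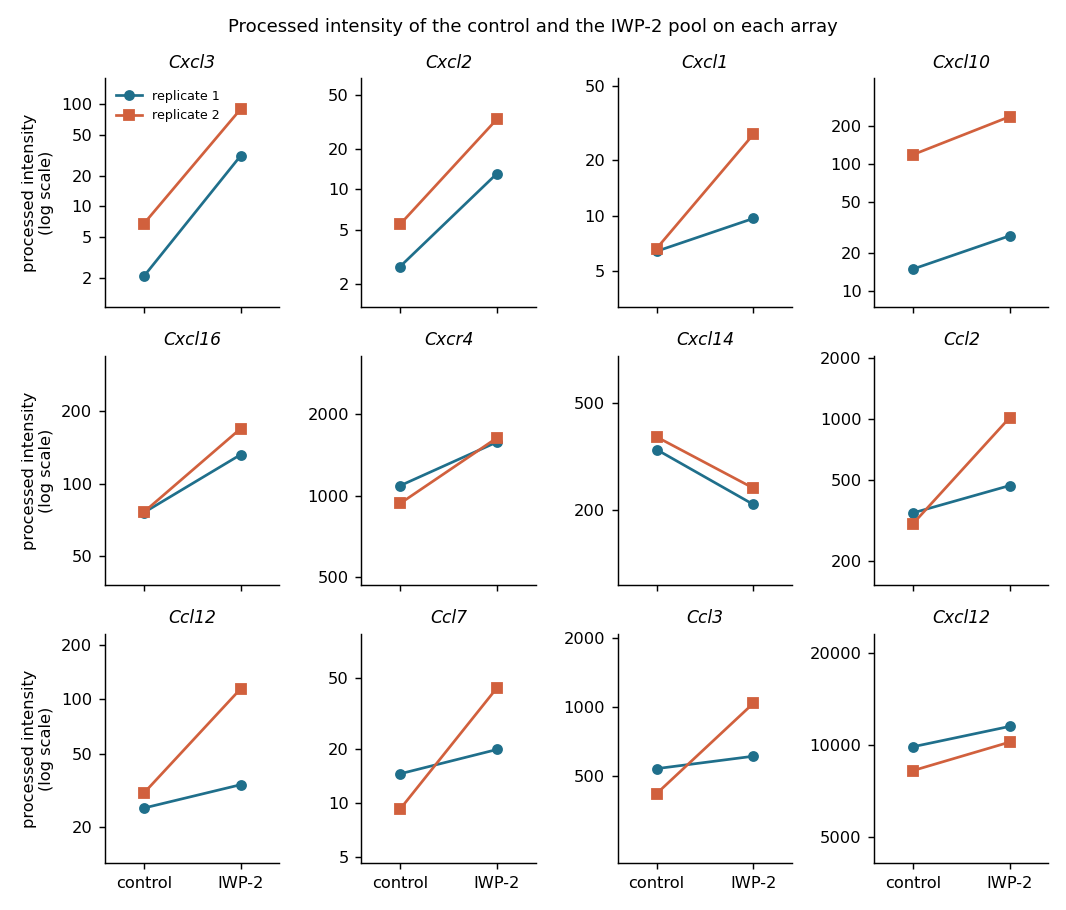
Processed intensity (vertical axis, log scale) in the control and the IWP-2-treated pool of each array for 12 chemokine and receptor genes. Lines join the 2 channels of 1 array, with circles for replicate 1 and squares for replicate 2. The lines of *Cxcl3*, *Cxcl2*, *Cxcl10* and *Cxcl16* rise on both arrays and those of *Cxcl14* fall on both, whereas *Ccl2*, *Ccl12*, *Ccl7* and *Ccl3* rise steeply on replicate 2 only.

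The ligands of CCR2, which recruit monocytes, were higher on both arrays but by very different amounts. *Ccl2* had processed intensities of 472 in treated and 346 in control ureters on replicate 1, and of 1018 and 306 on replicate 2. The treated values were above the control values on both arrays, and the control values of the arrays were close to each other. The log2 ratio of *Ccl2* was 0.45 on replicate 1 and 1.69 on replicate 2, and their mean of 1.07 ± 0.88 (SD, n = 2) was not past the threshold (adjusted p 0.125 in limma).

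*Ccl12* went from 25.3 in control to 34.0 in treated ureters on replicate 1 and from 30.5 to 114 on replicate 2. Its log2 ratios were 0.26 and 1.56 (adjusted p 0.203 in limma). *Ccl7* went from 14.6 to 20.0 and from 9.26 to 44.1, with log2 ratios of 0.24 and 1.35 (adjusted p 0.201 in limma). The replicate 2 ratios of these 3 genes lay between 1.35 and 1.69 and the replicate 1 ratios between 0.24 and 0.45, so the spread between arrays was about as large as the mean. *Ccl8* of the same group and the receptor *Ccr2* were not well above background.

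A set of 5 further CC ligands, which attract macrophages, monocytes and T cells, showed a like difference between arrays. *Ccl3* had processed intensities of 611 in treated and 540 in control ureters on replicate 1, and of 1039 and 420 on replicate 2. Its log2 ratio was 0.11 on replicate 1 and 1.30 on replicate 2 (adjusted p 0.287 in limma). *Ccl9*, a macrophage product, was at 896 and 801 on replicate 1 and at 1690 and 958 on replicate 2, with log2 ratios of 0.12 and 0.84.

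*Ccl4*, the close relative of *Ccl3*, had log2 ratios of 0.10 and 0.42 at intensities between 1441 and 2189. *Ccl5*, made by many stimulated cells, had ratios of 0.26 and 0.32 at treated intensities of 16.2 and 28.0. *Ccl6* was lower on replicate 1 at -0.14 and higher on replicate 2 at 0.52. Thus *Ccl3*, *Ccl9*, *Ccl4* and *Ccl5* were higher on both arrays, with adjusted p from 0.256 to 0.415 in limma, and *Ccl6* had an adjusted p of 0.787 in limma. The receptor *Ccr1* was not well above background.

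The eosinophil-attracting ligands of CCR3 changed little. *Ccl11* had log2 ratios of -0.10 on replicate 1 and 0.48 on replicate 2, and *Ccl24* had 0.05 and 0.11. *Ccr3* itself, which marks eosinophils, was at 11.7 in treated and 6.77 in control ureters on replicate 1 and at 16.1 and 8.09 on replicate 2. The treated values of *Ccr3* were above the control values on both arrays, with log2 ratios of 0.29 and 0.45 (adjusted p 0.173 in limma). With the processed intensities in place of the offset-corrected ones, the mean change of *Ccr3* was 0.89 and passed the threshold (adjusted p 0.0418 in limma). *Ccr3* was kept through the treated channel alone, so a higher value was built into its selection.

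Of the ligands of CXCR3, which are made under interferon and attract T cells, *Cxcl10* rose. Its processed intensity was 27.3 in treated and 14.9 in control ureters on replicate 1, and 237 and 119 on replicate 2. Treated values were higher within each array, but the control value of replicate 2 was above the treated value of replicate 1, so the groups overlap across arrays. With the probe on chromosome 5 at 92775781 to 92775840 (mm9), *Cxcl10* changed by 0.54 on replicate 1 and 0.92 on replicate 2, with a mean of 0.73 ± 0.27 on the log2 scale (SD, n = 2; adjusted p 0.0449 in limma).

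*Cxcl11* was at a processed intensity of 27156 in treated and 19084 in control ureters on replicate 1. On replicate 2 the order was turned, with 20187 and 22375. The log2 ratio of *Cxcl11* was 0.57 on replicate 1 and -0.22 on replicate 2 (adjusted p 0.855 in limma). The kept probes of *Cxcl11* disagree in brightness, since the other one read 409 to 476, with log2 ratios of 0.21 and -0.08. *Cxcl9* and the receptor *Cxcr3* did not pass the criterion on background. In a list of interferon-response genes, 9 of 12 were tested, 4 were higher and 2 were lower on both arrays, and 0 passed FDR 0.05 in limma, with 2 at an unadjusted p under 0.05.

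Among the homeostatic ligands, *Cxcl14* was the only one of 7 past the threshold. *Cxcl14* is a conserved chemokine of epithelia and mesenchyme that is expressed in many embryonic tissues. Its processed intensity was 209 in treated and 335 in control ureters on replicate 1, and 241 and 374 on replicate 2. Both treated values were below both control values, and the arrays were close to each other. With the probe on chromosome 13 at 56390078 to 56390137 (mm9), *Cxcl14* changed by -0.66 and -0.59, with a mean of -0.62 ± 0.05 on the log2 scale (SD, n = 2; adjusted p 0.0388 in limma).

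*Ccl19*, a ligand of CCR7 that guides dendritic cells and naive T cells, was at 626 in treated and 881 in control ureters on replicate 1 and at 646 and 834 on replicate 2. Treated values were again below control values on both arrays. Its log2 ratios were -0.45 and -0.35 (adjusted p 0.129 in limma), and the other kept probes gave -0.32 and -0.28 on replicate 1 and -0.37 and -0.39 on replicate 2. The mouse genome holds near-identical copies of *Ccl19* and of *Ccl27a*, and signal from these copies cannot be told apart, so their values are uncertain. *Ccl28*, a mucosal epithelial chemokine, had ratios of -0.32 and -0.18 (adjusted p 0.348 in limma).

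*Cxcl12*, which directs endothelial and blood progenitors, had a processed intensity of 11511 in treated and 9880 in control ureters on replicate 1 and 10232 and 8259 on replicate 2. The treated value was above the control value on both arrays, and the log2 ratios were 0.14 and 0.38 (adjusted p 0.372 in limma). The other kept probe of *Cxcl12* was designed on another transcript and gave 0.02 and 0.46.

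The remaining homeostatic ligands did not keep their sign. *Cxcl13*, which organises B cell follicles, had log2 ratios of -0.21 and 0.52 at intensities between 11.4 and 22.7. *Ccl27a*, known from skin, had -0.08 and 0.21 at intensities between 1484 and 1710, and its other kept probes gave -0.14 and -0.01 on replicate 1 and 0.22 and -0.11 on replicate 2. *Ccl25*, the thymic and intestinal ligand of CCR9, had -0.04 and 0.11, and its other kept probes gave 0.12 and 0.06 on replicate 1 and -0.23 and -0.10 on replicate 2.

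The receptors of homeostatic ligands were represented by *Cxcr4* and *Ccr7*. *Cxcr4*, the receptor of *Cxcl12* on endothelial tip cells, progenitors and leukocytes, was at 1575 in treated and 1088 in control ureters on replicate 1 and at 1632 and 935 on replicate 2. Both treated values were above both control values. With the probe on chromosome 1 at 130485079 to 130485138 (mm9), *Cxcr4* rose by 0.55 on replicate 1 and 0.79 on replicate 2, with a mean of 0.67 ± 0.17 on the log2 scale (SD, n = 2; adjusted p 0.0416 in limma). *Ccr7*, the receptor of *Ccl19*, had log2 ratios of -0.30 and 0.03 at intensities between 39.7 and 51.7.

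Of the dual or other ligands, *Cxcl16* rose. *Cxcl16* is a membrane-bound chemokine of macrophages, dendritic cells and endothelium that also takes up oxidised lipids, and its receptor is CXCR6. Its processed intensity was 132 in treated and 75.7 in control ureters on replicate 1 and 169 and 76.1 on replicate 2. The control values were nearly equal and both treated values lay above them. With the probe on chromosome 11 at 70267780 to 70267839 (mm9), the change of *Cxcl16* was 0.69 and 1.03, with a mean of 0.86 ± 0.24 on the log2 scale (SD, n = 2; adjusted p 0.0259 in limma). The receptor *Cxcr6* was not well above background.

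*Cx3cl1*, a membrane-bound chemokine of endothelium and neurons, had log2 ratios of 0.07 and 0.12 at intensities between 52.4 and 81.0. Its receptor *Cx3cr1*, a marker of macrophages and their embryonic precursors, was at 1940 in treated and 1680 in control ureters on replicate 1 and at 2851 and 1858 on replicate 2. The log2 ratios of *Cx3cr1* were 0.20 and 0.63 (adjusted p 0.220 in limma). The other kept probes of *Cx3cr1* were also higher on both arrays, with 0.37 and 0.17 on replicate 1 and 0.45 and 0.71 on replicate 2.

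*Cxcl15*, a lung-associated neutrophil chemokine, was at 9.98 in treated and 39.4 in control ureters on replicate 1 but at 69.0 and 72.7 on replicate 2. Its log2 ratios were -1.11 and -0.07, so the arrays differed by more than the size of the mean (adjusted p 0.324 in limma). *Ccr6*, the receptor of *Ccl20*, was well above background only in the treated channel, so a higher value was built into its selection. Its fitted change was 1.29-fold, which was not past the threshold (adjusted p 0.192 in limma). With the control channel at background, this fold is not exact. *Ccr8* had log2 ratios of -0.03 on both arrays.

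The changes were also viewed by position, since the inflammatory ligand genes lie in clusters. The cluster on chromosome 11 with *Ccl2*, *Ccl7*, *Ccl11*, *Ccl12*, *Ccl8* and *Ccl1* spans probe positions 81850650 to 81990227 (mm9), and 3 of its 4 tested genes were higher on both arrays. The neighbouring cluster with *Ccl5*, *Ccl9*, *Ccl6*, *Ccl3* and *Ccl4* spans 83339296 to 83478111, and 4 of its 5 genes were higher on both. On chromosome 5, between 91190490 and 91334593, *Cxcl3*, *Cxcl1* and *Cxcl2* were higher on both arrays, whereas *Cxcl5* and *Cxcl15* in the same cluster were lower on both. A common change along a whole cluster was thus not seen on chromosome 5. *Cxcl3*, *Cxcl1* and *Cxcl2* entered the test through the treated channel alone, so a higher value was built into their selection. Of all genes tested, 28.5% were higher and 27.5% were lower on both arrays.

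**Figure D4:**
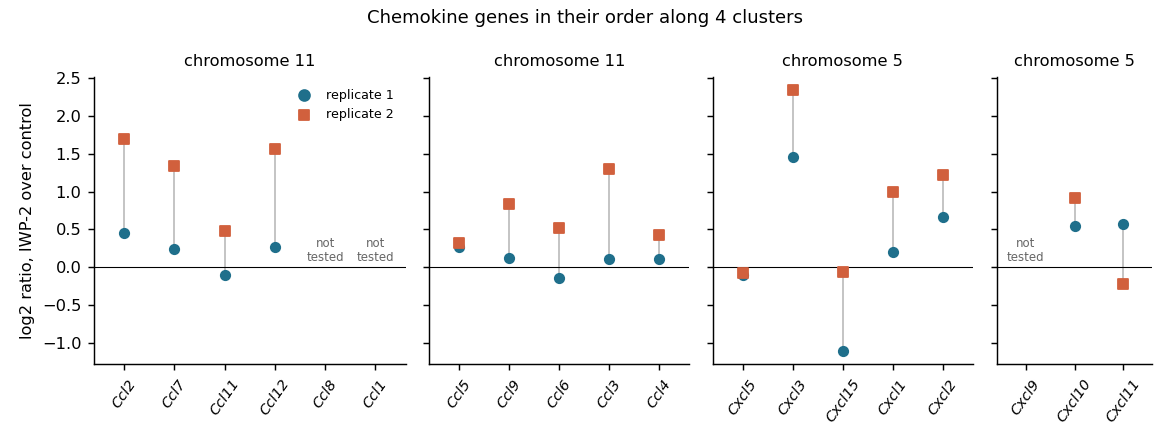
Log2 ratio of IWP-2-treated over control ureters (vertical axis) for the chemokine genes of 4 genomic clusters, in their order along the chromosome (not to scale). Circles are replicate 1 and squares are replicate 2. *Cxcl3* at 1.45 and 2.34 lies between *Cxcl5* and *Cxcl15*, which are below 0 on both arrays.

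When the filter modelled on the cut-offs of the study was applied (the brighter channel reaching a processed intensity of 100, and a 2-fold or larger change of equal sign, on each array), 0 of the 51 genes passed in either direction. Of these genes, 15 reached the intensity. The filter involves no test, and it passed 0.0368% of all genes as higher and 0.167% as lower. *Cxcl3*, whose ratio was the largest, did not reach the intensity on either array.

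Genes of related function and markers of the cell types of the explant were read beside the chemokines. Of 5 targets of WNT signaling, *Nkd1*, *Sp5*, *Lef1* and *Tcf7* fell at FDR 0.05 in limma, *Axin2* lay just outside it (adjusted p 0.0502), and all were lower on both arrays. Of 16 tested genes of the chemokine system that the name rule did not take, such as atypical receptors and signaling proteins downstream of the receptors, 8 were higher and 4 were lower on both arrays. At FDR 0.05, limma called 0 of these 16, and at an unadjusted p under 0.05 it gave 3 higher and 2 lower.

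In a list of NF-kB targets and acute inflammatory genes, 20 of 23 were tested, and 14 were higher and 1 was lower on both arrays. The median change of this list was 0.14 on replicate 1 and 0.43 on replicate 2. *Tnf*, the cytokine of activated macrophages, was at 102 in treated and 58.5 in control ureters on replicate 1 and at 151 and 60.0 on replicate 2. *Tnf* rose by 0.92 ± 0.35 on the log2 scale (SD, n = 2; adjusted p 0.0340 in limma). *Nfkbiz*, a nuclear cofactor of NF-kB, fell by 0.77 on the log2 scale (SD 0.09, n = 2; adjusted p 0.0221 in limma). *Il1b*, *Il6* and *Csf3*, which are usual partners of *Cxcl1* and *Cxcl2* in acute inflammation, were not well above background.

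Markers of macrophages and of endothelium moved in the same direction as the inflammatory ligands. All 15 macrophage markers on the array were well above background and higher on both arrays, with medians of 0.30 on replicate 1 and 0.56 on replicate 2. Their summed processed intensity was 27174 in treated and 21404 in control ureters on replicate 1 and 24674 and 16505 on replicate 2. *Adgre1*, which encodes the macrophage antigen F4/80, rose by 0.92 ± 0.41 (SD, n = 2; adjusted p 0.0409 in limma), and *Lyz2*, the macrophage lysozyme, had 0.56 and 0.53 (adjusted p 0.0544 in limma). All 10 endothelial markers were also higher on both arrays, with medians of 0.38 and 0.58, and *Sox17*, *Kdr* and *Cldn5* passed FDR 0.05 in limma with means of 0.90, 0.74 and 0.65. Their summed intensity was 26076 in treated and 18655 in control ureters on replicate 1 and 21840 and 13825 on replicate 2. In RNA of whole explants, more or fewer cells of a type and more or less RNA per cell cannot be told apart, and the part of these cells in the changes of *Cxcl3*, *Cxcl2*, *Cxcl10*, *Cxcl16* and *Cxcr4* was not tested.

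Markers of the ureter itself were present. Of 10 epithelial markers, 4 were higher and 3 were lower on both arrays and 0 passed FDR 0.05 in limma, with 3 higher and 2 lower at an unadjusted p under 0.05. Of 10 mesenchymal markers, 2 were higher and 7 were lower on both arrays, and *Tbx18*, *Ptch1*, *Tcf21* and *Bmp4* fell at FDR 0.05 in limma. *Osr1*, a transcription factor gene of the early urogenital mesenchyme, had -0.60 and -0.53 (adjusted p 0.0503 in limma). The summed intensity of these mesenchymal markers was 113005 in treated and 128038 in control ureters on replicate 1 and 105907 and 110472 on replicate 2. Of the other mesenchymal markers, *Vim* and *Aldh1a2* had means of 0.31 and 0.05, and *Pdgfra*, *Col1a1* and *Col3a1* had -0.19, -0.07 and -0.07. The fall of *Cxcl14* went in the direction of *Tbx18*, *Ptch1*, *Tcf21*, *Bmp4* and *Osr1*, and the part of the mesenchyme in it was not tested. Of 10 lymphocyte markers, 6 were not tested, and of the 4 tested 0 passed FDR 0.05 or an unadjusted p under 0.05 in limma.

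**Figure D5:**
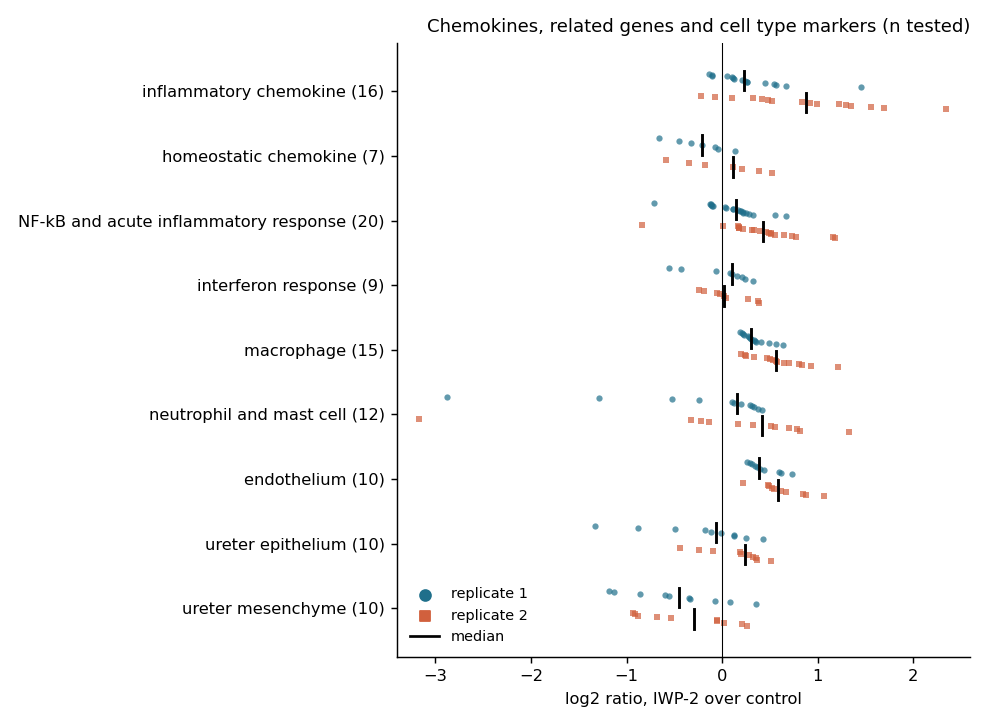
Log2 ratio of IWP-2-treated over control ureters (horizontal axis) for each tested gene of 9 lists, with the number of genes in parentheses. Circles are replicate 1, squares are replicate 2 and black lines are medians. All macrophage and endothelial markers lie above 0. The medians on replicate 1 are 0.23 for the inflammatory ligands and 0.30 for the macrophage markers, and on replicate 2 they are 0.88 and 0.56. Among these ligands, *Cxcl3*, *Cxcl2* and *Cxcl1* entered the test through the treated channel alone. A higher value was built into their selection and raises the ligand medians, so the medians of the lists are not compared.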

How the data were processed

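Per the file headers, the deposited scanner files come from Feature Extraction 12.2.0.7 (the submitters' notes name version 10.7.3.1). Per the file headers, they hold unnormalized spot intensities with local backgrounds for both dyes, a processed intensity corrected by the software for background and dye, and other columns that mark outlier, saturated and well-above-background spots. Another unit, a signed fold change rounded to 1 decimal, makes up the deposited table of the series. Probes of 60 bases were printed 4 times each. The mean intensity was corrected by normexp with an offset of 50 and normalized by loess within each array (limma 3.58.1, R 4.3.3, and version 1.17.8 of the data.table package). Control spots had weight 0, and outlier spots were dropped, 12 of the 272 spots of these genes on replicate 1 and 6 on replicate 2. Probes were kept when the share of spots well above background exceeded 0.5 in the treated or in the control channel of both arrays, and the brightest kept probe of a gene was used. The functions lmFit and eBayes were run on the 20119 genes kept, the dye swap entering as the sign of the ratio, with Benjamini-Hochberg adjustment over all of them. The 2 arrays left 1 residual degree of freedom, and their number limits the precision. Both arrays lay on 1 slide. The share of spots well above background was 68.6% to 70.7% per channel.

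Where a gene was not well above background in control ureters on either array, the fitted fold was kept. The lowest signal well above background lay below the control signal of both such genes, so it set no separate limit. Processed intensities are geometric means over the spots. Probe positions are those of the files (mm9). The exon or UTR that a probe lies in was not analysed here. Promoters are from RefSeq (GRCm38.p6) and were used only as sequence. The procedure was tested on simulated data. Every kept gene is named except 1, which enters the counts and medians but is not reported here. Of the related lists, genes were named that passed FDR 0.05 or changed by at least 0.5 (log2) the same way on both arrays. Others were named where they are a partner of a named gene, and the mesenchymal markers were all named. The members, classes, lists and motifs were chosen with earlier results of these data known. Alternatives covered background correction, normalization, the filter on dim probes, outlier spots, the probe of a gene, the variance prior, a dye term, the series table and each array alone.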

Additional observations from a re-analysis of the deposited data

How the results depend on the processing

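The 6 genes past FDR 0.05 had the same sign in all alternatives with a value for them, but their calls rest on 2 arrays with 1 residual degree of freedom. At FDR 0.05 in limma, 3 genes were higher and 0 lower with no background correction, 5 and 0 with the processed signals, 1 and 0 with centring on the median, 3 and 1 with both channels required above background (*Cxcl3* and *Cxcl2* untested), 4 and 1 with outlier spots kept (*Cxcl10* lost, adjusted p 0.0535), and 2 and 1 with the rounded series table (*Ccl5*, *Cxcl12* and *Cxcl5*, with 0 of the 6). Without a filter on dim probes, and when the channels were modelled separately with a term for the dye (the correlation estimated without that term), the counts were 0 and 0, and an unadjusted p under 0.05 was found for 18 and 16 genes. The genes called stayed the same 6 with an offset of 16, the mean of all probes, a trend or a robust trend in the variance prior, and FDR 0.1. Over all genes, these settings called 142 to 370 higher and 253 to 346 lower. Adjusted p in limma ranged from 0.00219 to 0.420 for *Cxcl3*, 0.00469 to 0.577 for *Cxcl2*, 0.0276 to 0.889 for *Cxcl10*, 0.0148 to 0.271 for *Cxcl16*, 0.0149 to 0.488 for *Cxcr4* and 0.0231 to 0.482 for *Cxcl14*. The cause of these differences was not tested. The filter passed 1 higher (*Cxcl16*) and 1 lower gene (*Cxcl14*) at a fold change of 1.5, and 0 to 4 higher genes when 1 array was left out, the 4 without replicate 1 being *Ccl2*, *Ccl3*, *Ccl12* and *Cxcl16*. With the processed signals the means were over 1.5 times larger for *Cxcl3* (3.82), *Cxcl2* (2.43), *Ccl7* (1.35), *Cxcl1* (1.31), *Ccr6* (1.31), *Ccr3* (0.89) and *Cxcl15* (-1.03). The median of the inflammatory ligands, 0.54, was 0.29 with both channels required, 0.28 without the filter and 0.23 to 0.88 on a single array, and 0.52 to 0.62 under the other settings. The class medians moved for homeostatic ligands to between -0.21 and 0.11 on a single array, for dual or other ligands to -0.011 and for homeostatic receptors to -0.028 without the filter, and for inflammatory receptors to 0.52 with the processed signals. For the 3 dual or other receptors the median of 0.37 became 0.41 under each other background correction, 0 with the series table, 0.12 without the filter, 0.19 with both channels required and 0.20 to 0.25 on a single array. The treated and control pools of a number share an array and enter as its ratio, so the fit is already paired by array. Genes near background, such as *Cxcl2* and *Ccr6*, are limited by their signal.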

Other observations

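The brightness of *Cxcl10* differed between the arrays in both channels. Its processed intensity in control ureters was 14.9 on replicate 1 and 119 on replicate 2, while the median over all genes tested was 605 and 643. Several interferon-response genes that did not pass FDR 0.05 in limma showed the same order, such as *Isg15*, with 83.0 and 261 in control ureters, *Ifit3*, with 36.1 and 190, and *Ifit1*, with 22.2 and 93.4. In treated ureters the values of replicate 1 and replicate 2 were 93.1 and 214 for *Isg15*, 39.0 and 163 for *Ifit3* and 10.1 and 90.8 for *Ifit1*. These genes were chosen after their values were seen. The arrays were not scaled to each other, and the difference was not tested.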
